A study of Mus musculus with 65 samples.

Results

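The loci of Zfpm1 and Cbfa2t3 on mouse chromosome 8 were described from the peaks of LDB1, YY1, the cohesin subunit RAD21 and CTCF in erythroblasts. Members were all peaks with at least 1 bp in 1 of 2 windows of 200 kb, chr8:124750000-124950000 for Zfpm1 and chr8:125100000-125300000 for Cbfa2t3 (mm9). The windows held 160 of the 143220 peaks in the 9 lists used, 83 at Zfpm1 and 77 at Cbfa2t3. An annotation of mm9 was not used here, so no peak was placed in an exon, an intron or a promoter. In the RefSeq order of genes (GRCm38.p6), 15 protein-coding genes lie between Zfpm1 and Cbfa2t3, from Trhr2 next to Zfpm1 to Pabpn1l next to Cbfa2t3. The windows may therefore hold parts of neighbouring genes.

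The cells came from G1E-ER4, mouse erythroblasts without GATA1 of their own that carry a GATA1 fused to a hormone-binding domain. The sample titles do not say whether the hormone was added. LDB1-AID cells have a degron tag on LDB1 and SMC3-AID cells have it on SMC3, so that adding auxin leads to degradation of that protein. The lists used came from chromatin immunoprecipitation with sequencing (ChIP-seq). In untreated LDB1-AID cells they were of LDB1, CTCF, RAD21 and YY1, and in LDB1-AID cells given auxin for 4 h of LDB1. In SMC3-AID cells they were of LDB1 and RAD21, untreated and after 4 h of auxin. The series also holds samples of YY1, RAD21 and CTCF in auxin-treated LDB1-AID cells, which were not analysed here. Each LDB1-AID list combined 2 replicates and each SMC3-AID list combined 3. The labels do not say whether a subline is a single clone, and cells without a degron that received auxin were not analysed here. Every peak was 400 bp wide and carried no height or score, so a site was either called or not called, with no replicate error and no test. The lists ranged from 25 to 54286 peaks. LDB1 peaks numbered 10741 in untreated and 1047 in auxin-treated LDB1-AID cells, and RAD21 peaks 15245 and 25 in SMC3-AID cells. Untreated LDB1-AID cells had 33204 RAD21 peaks, and the subline and the way its list was combined cannot be told apart. Read depth is unknown, and an uncalled peak may be weaker binding below the calling threshold.

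Zfpm1 encodes FOG1, a zinc finger cofactor that binds GATA1 and is needed for red cell and platelet precursors to mature. Cbfa2t3 encodes ETO2, a corepressor of the ETO family that joins the erythroid complex of LDB1, TAL1, LMO2 and GATA1. LDB1 does not bind DNA itself. It is brought to GATA and E-box elements by its partners and can pair with itself, which links distant enhancers and promoters. YY1 and CTCF bind DNA directly, and cohesin, which holds RAD21 and SMC3, extrudes chromatin loops and is halted at CTCF.

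The annotated promoters are shown because both genes encode partners of DNA-binding proteins in this complex, and because LDB1 partners read GATA and E-box letters. RefSeq (GRCm38.p6) gave 1 start for Zfpm1 and 2 for Cbfa2t3, each with 250 bases before and 50 after the start. Capitals mark matches on either strand to the E-box CANNTG, to GATA and to the GC box GGGCGG. The Zfpm1 promoter is at chr8:122281891-122282190 on the plus strand, and the Cbfa2t3 promoters are at chr8:122699060-122699359 and chr8:122678126-122678425 on the minus strand. These positions are of another build than the peaks, and whether a peak lies on them is not known from these data.

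Zfpm1 promoter 1: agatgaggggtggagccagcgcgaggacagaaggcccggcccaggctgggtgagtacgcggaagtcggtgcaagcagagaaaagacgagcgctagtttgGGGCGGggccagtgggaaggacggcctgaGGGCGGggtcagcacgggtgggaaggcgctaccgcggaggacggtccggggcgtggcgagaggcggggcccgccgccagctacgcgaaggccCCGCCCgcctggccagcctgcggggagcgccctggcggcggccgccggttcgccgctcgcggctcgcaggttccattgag

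Cbfa2t3 promoter 1: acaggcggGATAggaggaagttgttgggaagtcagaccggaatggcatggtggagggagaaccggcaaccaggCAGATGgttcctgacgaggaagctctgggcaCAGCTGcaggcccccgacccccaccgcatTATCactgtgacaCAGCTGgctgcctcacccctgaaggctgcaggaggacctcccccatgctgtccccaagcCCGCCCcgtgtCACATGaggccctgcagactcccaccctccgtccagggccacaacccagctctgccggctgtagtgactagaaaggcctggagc

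Cbfa2t3 promoter 2: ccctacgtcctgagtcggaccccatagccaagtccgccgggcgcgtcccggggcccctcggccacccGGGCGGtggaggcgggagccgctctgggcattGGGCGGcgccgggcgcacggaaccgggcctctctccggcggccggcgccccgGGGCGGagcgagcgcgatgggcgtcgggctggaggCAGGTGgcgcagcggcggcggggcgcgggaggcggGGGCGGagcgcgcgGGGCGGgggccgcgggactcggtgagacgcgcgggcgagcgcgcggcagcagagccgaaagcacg

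The upstream Cbfa2t3 promoter held 4 E-boxes and 2 GATA matches, whereas the downstream one held 1 E-box and no GATA. The Zfpm1 promoter held neither. Of all 32851 promoters in the table, 72.3% held an E-box and 57.9% held GATA, so these matches are common in windows of this length. GC boxes numbered 3 at Zfpm1, 1 at the upstream and 5 at the downstream Cbfa2t3 promoter, and 35.7% of promoters held at least 1. None of the 3 sequences held AGATAA (11.2% of promoters), the YY1 core ATGGCG (8.93%) or the CTCF core motif (2.43%). AGATAA contains GATA, and CANNTG reads the same on both strands. The Zfpm1 promoter was 73.7% G and C with 37 CpG, the upstream Cbfa2t3 promoter 63.7% with 10, and the downstream one 81.7% with 53. The medians over all promoters were 52.7% and 7. GATA and GGGCGG were added after the sequences were seen, and no match is evidence of binding.

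**Figure D1:**
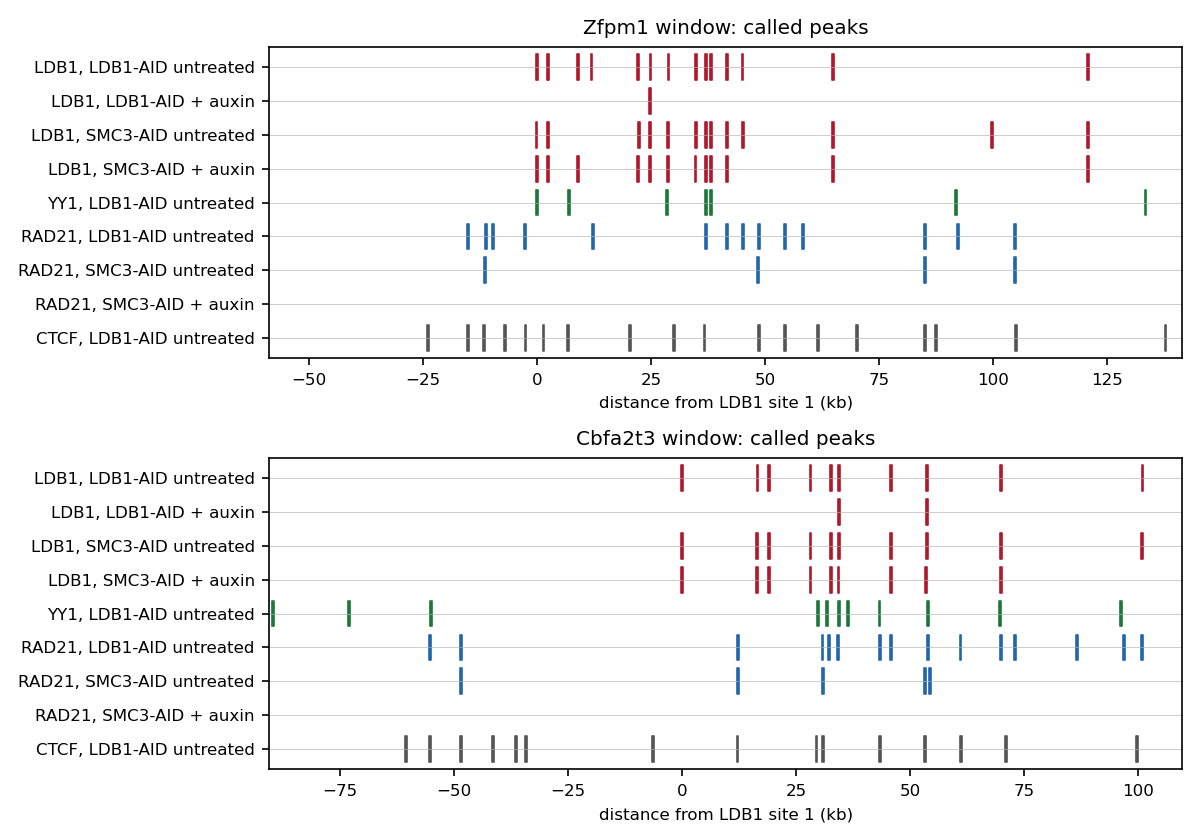
Called peaks in the Zfpm1 window (top) and the Cbfa2t3 window (bottom). The x axis gives the distance in kb from the centre of LDB1 site 1 of that window, each row is 1 peak list and each mark is 1 peak of 400 bp, drawn slightly wider than to scale. LDB1 marks stand in 3 of the 4 LDB1 rows at most sites, the LDB1-AID row with auxin has 1 mark at Zfpm1 and 2 at Cbfa2t3, and the RAD21 row of auxin-treated SMC3-AID cells is empty.

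LDB1 sites were numbered from low to high coordinate within each window, and distances are between peak centres. Untreated LDB1-AID cells had 14 LDB1 sites in the Zfpm1 window and 10 in the Cbfa2t3 window. As shown in the map of called peaks, most lay in 1 cluster per locus. At Zfpm1, sites 1 to 13 formed a chain with neighbours within 25 kb, from chr8:124808472 to 124873759 (65.3 kb). Site 14 (chr8:124929221-124929620) stood 55.9 kb beyond site 13. At Cbfa2t3, sites 1 to 9 formed a chain from chr8:125190229 to 125260459 (70.2 kb). Site 10 (chr8:125291164-125291563) lay 31.1 kb further, in a chain with 1 LDB1 peak just outside the window. The 150 kb between the windows held a single LDB1 position, chr8:125061749-125062148 in LDB1-AID cells, which was also called in SMC3-AID cells with and without auxin.

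The median distance between neighbours was 3.46 kb at Zfpm1 (13 intervals) and 9.01 kb at Cbfa2t3 (9 intervals), and 39.9 kb over all 10709 intervals of the list. At Zfpm1, 8 of 13 intervals were at most 5 kb long, and at Cbfa2t3 3 of 9, beside 14.8% of all intervals. The closest pair at Zfpm1 was sites 9 and 10, 1.1 kb apart, and at Cbfa2t3 sites 5 and 6, 1.62 kb apart. Within the clusters the longest intervals were 19.9 kb between Zfpm1 sites 12 and 13 and 16.6 kb between Cbfa2t3 sites 1 and 2. A window of 200 kb cannot hold the long intervals that occur elsewhere, so these medians are lower by construction than that of the whole list. With neighbours within 10 kb in place of 25 kb, the longest chains held 8 sites at Zfpm1 and 5 at Cbfa2t3. No test of the spacing was run.

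**Figure D2:**
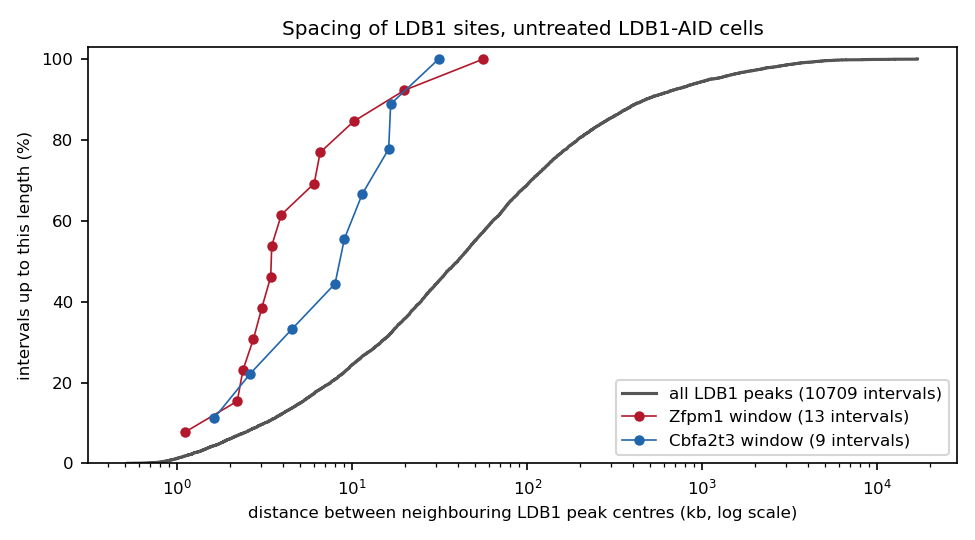
Distance between neighbouring LDB1 peak centres in untreated LDB1-AID cells. The x axis is in kb on a log scale and the y axis is the percent of intervals up to that length. Each dot is 1 interval of the Zfpm1 or Cbfa2t3 window and the grey line is all LDB1 peaks. The medians are 3.46 kb at Zfpm1 and 9.01 kb at Cbfa2t3 beside 39.9 kb for all peaks, and the ranges overlap, with the longest interval of 55.9 kb at Zfpm1.

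The density of LDB1 sites was set beside tiles of the same length across the genome. Of 13197 tiles of 200 kb, 4 held at least 14 LDB1 peaks (0.0303%) and 47 held at least 10 (0.356%). The fullest tile held 17, and 30.4% of tiles held any. The other proteins were also dense at these loci. CTCF, with 18 peaks at Zfpm1 and 15 at Cbfa2t3, was matched or exceeded in 2.77% and 5.73% of tiles. For RAD21 of LDB1-AID cells, with 14 and 15 peaks, the shares were 1.31% and 0.834%, and for YY1, with 7 and 11 peaks, 2.5% and 0.333%. The smaller RAD21 list of untreated SMC3-AID cells had only 4 and 5 peaks, which 10.7% and 6.15% of tiles reached. How dense RAD21 appears here thus depends on the list used. LDB1 of untreated SMC3-AID cells gave 13 and 10 peaks, which 0.0227% and 0.121% of tiles reached. These shares describe 2 windows that were placed on genes of interest, whereas the tiles lie on a fixed grid. The grid includes the 2 loci themselves, and all 14 Zfpm1 sites fall in 1 of the 4 tiles with at least 14 LDB1 peaks.

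**Figure D3:**
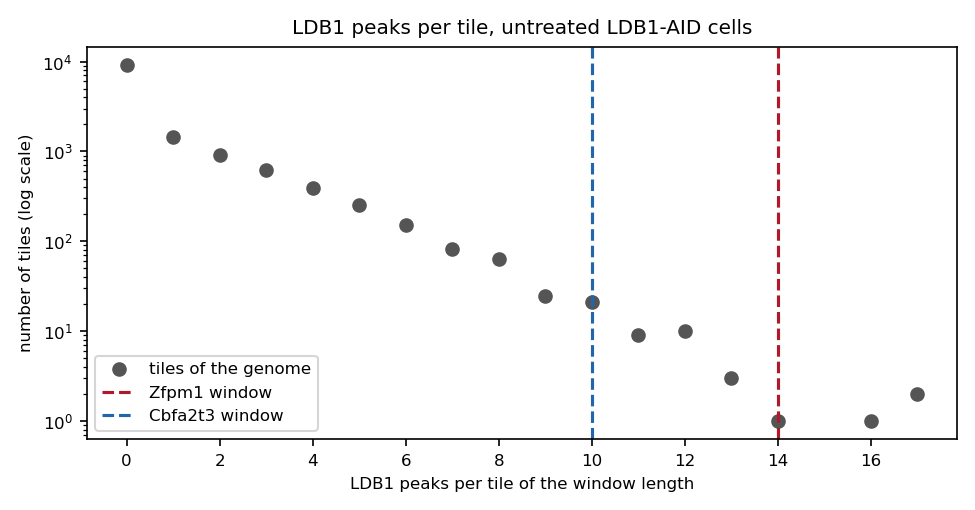
LDB1 peaks of untreated LDB1-AID cells per genome tile of 200 kb. The x axis is the number of peaks in a tile and the y axis, on a log scale, the number of tiles; tile counts of 0 are not drawn. The dashed lines mark 14 peaks in the Zfpm1 window and 10 in the Cbfa2t3 window, which 4 and 47 tiles reached.

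YY1 was found at LDB1 sites of both loci, with partly different proteins called beside it in the lists of untreated LDB1-AID cells. At Zfpm1, 4 of 14 LDB1 sites overlapped a YY1 peak and at Cbfa2t3 3 of 10, beside 20.4% of all LDB1 peaks. The Zfpm1 sites with YY1 were site 1 (chr8:124808472-124808871), site 7 (chr8:124837269-124837668), site 9 (chr8:124845523-124845922) and site 10 (chr8:124846625-124847024). Sites 1, 7 and 10 carried YY1 with neither RAD21 nor CTCF, a class that held 11% of all LDB1 peaks. At site 9 the LDB1 and YY1 centres were 2 bp apart. The Cbfa2t3 sites with YY1 were site 6 (chr8:125224565-125224964), site 8 (chr8:125243931-125244330) and site 9 (chr8:125260060-125260459), and all 3 carried RAD21 as well and no CTCF. That class held 7.37% of all LDB1 peaks and no site at Zfpm1. No test of this difference between the loci was run.

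RAD21 of untreated LDB1-AID cells overlapped 4 of 14 LDB1 sites at Zfpm1 and 5 of 10 at Cbfa2t3, beside 25.1% of all LDB1 peaks. Zfpm1 site 4 (chr8:124820427-124820826), site 11 (chr8:124850087-124850486) and site 12 (chr8:124853504-124853903) carried RAD21 alone. So did Cbfa2t3 site 7 (chr8:125235967-125236366) and site 10, in a class of 12.8% of all LDB1 peaks. The centres were closest at Cbfa2t3 site 7, 4 bp apart, and farthest at Zfpm1 site 4, 238 bp apart. With the RAD21 list of SMC3-AID cells the picture was sparser. It overlapped 0 of the 14 Zfpm1 sites and only site 8 among the 10 Cbfa2t3 sites, beside 4.7% of all LDB1 peaks.

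CTCF was rarely at an LDB1 site. It overlapped 1 of 14 sites at Zfpm1 and 0 of 10 at Cbfa2t3, beside 7.4% of all LDB1 peaks. The exception was Zfpm1 site 9, where LDB1, YY1, RAD21 and CTCF were all called, as at 1.63% of all LDB1 peaks. Its CTCF centre was 360 bp from that of LDB1, a partial overlap, whereas RAD21 was 96 bp away. With a gap of up to 1 kb allowed, 3 sites at Zfpm1 and 4 at Cbfa2t3 had CTCF. The share of all LDB1 peaks under that rule was not counted, so these counts have no background. A further 7 Zfpm1 sites and 5 Cbfa2t3 sites, the latter sites 1 to 5, carried none of the 3 proteins, as did 61.5% of all LDB1 peaks.

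CTCF nevertheless lay close by and between the LDB1 sites. The median distance from an LDB1 site to the nearest CTCF centre was 2 kb at Zfpm1 and 2.1 kb at Cbfa2t3, beside 6.32 kb for all LDB1 peaks. For YY1 the medians were 2.91 and 2.07 kb beside 10.5 kb, and for RAD21 2.95 and 0.335 kb beside 5.32 kb. Among intervals of at most 25 kb between neighbouring LDB1 sites, 6 of 12 at Zfpm1 and 5 of 8 at Cbfa2t3 held the centre of a CTCF peak, beside 37.1% of all such intervals. A CTCF peak with RAD21 was held by 2 of 12 and 4 of 8, beside 22.6%. Both Zfpm1 counts include the interval between sites 8 and 9, through the CTCF peak that overlaps site 9. With RAD21 called in both sublines, the counts were 1 of 12 and 2 of 8, beside 12.1%. Some neighbouring LDB1 sites of each cluster thus had a CTCF peak between them.

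**Figure D4:**
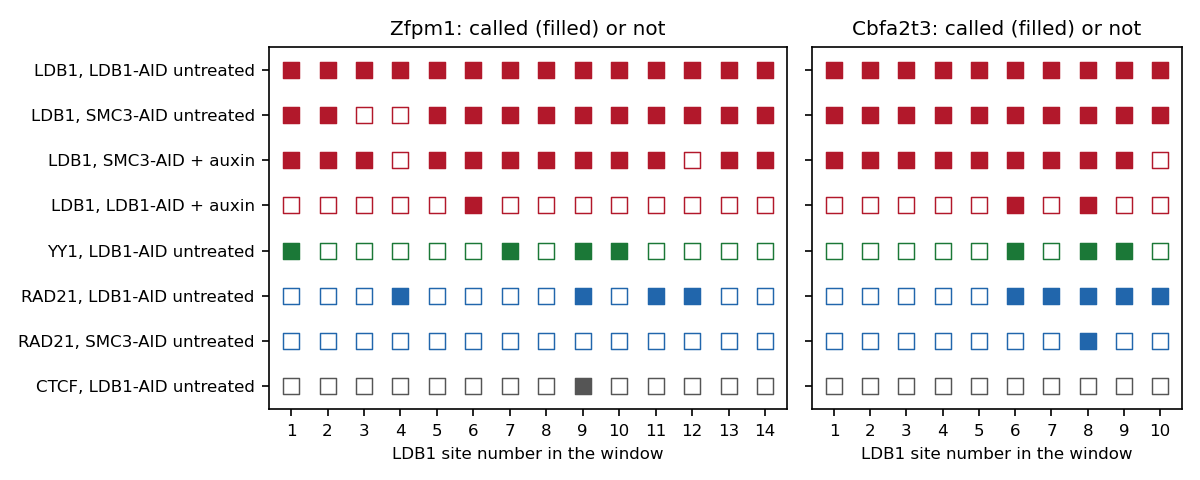
Calls at each LDB1 site of untreated LDB1-AID cells. The x axis is the site number in the Zfpm1 window (left) and the Cbfa2t3 window (right), each row is a peak list, and a filled square means an overlap of at least 1 bp. In the LDB1 row of untreated SMC3-AID cells 12 of 14 and 10 of 10 sites are filled, beside 67% of all LDB1 peaks. With auxin in SMC3-AID cells 12 of 14 and 9 of 10 are filled, beside 59%. In the LDB1 row of LDB1-AID cells with auxin 1 and 2 are filled, beside 7.77%.

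After LDB1 was degraded, few LDB1 sites were called at either locus. At Zfpm1, site 6 (chr8:124833337-124833736) was called and the other 13 were not. At Cbfa2t3, sites 6 and 8 were called and the other 8 were not. Over all LDB1 peaks 7.77% were called after depletion. The 2 Cbfa2t3 sites belong to the class with RAD21 and YY1 but no CTCF, of which 29% of all peaks were called, and site 9 of the same class was not. Zfpm1 site 6 had none of the 3 proteins, a class in which 3.08% of all peaks were called. Its nearest YY1, CTCF and RAD21 centres were 3.62, 4.42 and 12.1 kb away. The peak called after depletion there was shifted by -145 bp from the untreated centre, and the LDB1 peaks of SMC3-AID cells were shifted the same way, by -151 bp without and -158 bp with auxin. At Cbfa2t3 sites 6 and 8 the shifts were 58 and 77 bp. The median absolute shift over all 834 peaks called in both lists was 38 bp.

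After SMC3 was degraded, LDB1 remained called at most sites of both loci. Of the LDB1 peaks of untreated SMC3-AID cells, 11 of 13 at Zfpm1 and 9 of 10 at Cbfa2t3 overlapped a peak after auxin, beside 78.2% of all. The peaks not called were at Zfpm1 site 12, at Cbfa2t3 site 10 and at chr8:124908198-124908597 in the Zfpm1 window, 21 kb from the nearest LDB1-AID site. The classes that follow use the CTCF, RAD21 and YY1 lists of untreated LDB1-AID cells. By these lists, Zfpm1 site 12 and Cbfa2t3 site 10 are of the class with RAD21 alone. Neither overlapped a RAD21 peak of untreated SMC3-AID cells. In that class, 1 of 2 peaks at Zfpm1 and 1 of 2 at Cbfa2t3 were called after auxin, beside 87% of all. In the class with RAD21 and YY1, 3 of 3 at Cbfa2t3 were called, beside 92.5% of all. Without any of the 3 proteins, 6 of 7 at Zfpm1 and 5 of 5 at Cbfa2t3 were called, beside 73%. At Zfpm1, 3 of 3 peaks with YY1 alone were called, beside 85.9% of all, and 1 of 1 with all 3 proteins, beside 92.4%. With so few peaks in a class, no difference between classes can be read from these loci.

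RAD21 itself was not called at either locus after SMC3 depletion. The untreated SMC3-AID list held 4 RAD21 peaks at Zfpm1 and 5 at Cbfa2t3, and 0 of each were called after auxin, beside 0.092% of all. The positions of LDB1 that were called with and without SMC3 were close. The median absolute shift of the centre was 20 bp at Zfpm1 and 14 bp at Cbfa2t3, beside 19 bp over all 6715 such peaks. The largest shifts were 195 bp at Zfpm1 and 190 bp at Cbfa2t3.

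In the other direction, 11 of 12 LDB1 peaks at Zfpm1 and 9 of 9 at Cbfa2t3 after SMC3 depletion had an untreated counterpart, beside 92.8% of all. The peak without a counterpart was at Zfpm1 site 3 (chr8:124817389-124817788), which untreated LDB1-AID cells also had.

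The untreated sublines shared most LDB1 sites of these loci. SMC3-AID cells had a peak at 12 of 14 Zfpm1 sites and 10 of 10 Cbfa2t3 sites, beside 67% of all LDB1-AID peaks. Sites 3 and 4 of Zfpm1 were not called there. Counted against the list after SMC3 depletion, 12 of 14 and 9 of 10 LDB1-AID sites were called, beside 59%. Seen from SMC3-AID cells, 12 of 13 and 10 of 10 peaks were found in LDB1-AID cells, beside 84.1%. On the same base of 13 SMC3-AID peaks at Zfpm1, 12 were found in untreated LDB1-AID cells and 11 were called after auxin. At Cbfa2t3, 0 sites differed between the sublines and 1 was not called after auxin.

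RAD21 peaks with and without LDB1 were counted for CTCF. Of 9 RAD21 peaks on an LDB1 site in both windows, 1 carried CTCF, beside 23.2% of all RAD21 peaks with LDB1. Of the 20 without LDB1, 13 carried CTCF and 7 did not, beside 86% with CTCF over all. Over all RAD21 peaks of LDB1-AID cells, 8 of 14 at Zfpm1 and 6 of 15 at Cbfa2t3 carried CTCF, beside 80.9% of the whole list. Seen from CTCF, 8 of 18 peaks at Zfpm1 and 6 of 15 at Cbfa2t3 carried RAD21, beside 49.5%. LDB1 was at 1 of 18 CTCF peaks at Zfpm1 and 0 of 15 at Cbfa2t3, beside 1.47% of all CTCF peaks, so nearly all CTCF peaks stood apart from LDB1 both here and in the whole list. The CTCF peaks without LDB1 lay at a median of 6.98 kb from the nearest LDB1 site at Zfpm1 and 6.32 kb at Cbfa2t3.

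The smaller RAD21 list of SMC3-AID cells marked mainly the CTCF sites. Of the LDB1-AID RAD21 peaks, 4 of 14 at Zfpm1 and 3 of 15 at Cbfa2t3 were found in it, beside 43.4%. In the other direction 4 of 4 and 3 of 5 of its peaks were found in LDB1-AID cells, beside 94.6%, and 4 of 4 and 4 of 5 carried CTCF, beside 92.3%. The positions that follow were chosen after their values were seen. At Zfpm1 its peaks were at chr8:124797071-124797470, below the LDB1 cluster, at chr8:124856977-124857376, between LDB1 sites 12 and 13, and at chr8:124893463-124893862 and chr8:124913236-124913635, between sites 13 and 14. At Cbfa2t3 they were at chr8:125141855-125142254, 48.4 kb from the nearest LDB1 site, at chr8:125202523-125202922 between sites 1 and 2, at chr8:125221126-125221525 between sites 4 and 5, and around site 8. Both clusters therefore had a CTCF peak of LDB1-AID cells with RAD21 of both sublines outside them on the low-coordinate side and at least 1 inside. At Zfpm1 such peaks also lay above the cluster, between sites 13 and 14. How often other clusters have this arrangement was not counted.

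At Cbfa2t3 site 8, peaks of all 4 proteins lay side by side. Within the stretch of overlapping peaks around it lay CTCF (chr8:125243481-125243880), RAD21 of SMC3-AID cells (chr8:125243565-125243964), LDB1, RAD21 of LDB1-AID cells (chr8:125244103-125244502), YY1 (chr8:125244231-125244630) and a further RAD21 peak of SMC3-AID cells (chr8:125244595-125244994). The centres of CTCF, RAD21 of LDB1-AID cells and YY1 were 450, 172 and 300 bp from that of LDB1. CTCF did not overlap LDB1 of untreated cells there but did overlap RAD21 of SMC3-AID cells. After SMC3 depletion the LDB1 peak was at chr8:125243765-125244164, shifted by -166 bp from site 8, and overlapped CTCF. LDB1 was called at site 8 in all 4 LDB1 lists, as at Cbfa2t3 site 6 and Zfpm1 site 6. The share of all LDB1 peaks called in all 4 lists was not counted.

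YY1 also bound apart from LDB1. At Zfpm1 4 of 7 YY1 peaks and at Cbfa2t3 3 of 11 carried LDB1, beside 17.1% of all YY1 peaks. RAD21 was at 2 of 7 and 6 of 11, beside 27.6%, and CTCF at 2 of 7 and 3 of 11, beside 17.1%. At Cbfa2t3 the YY1 peaks chr8:125220090-125220489, chr8:125222070-125222469 and chr8:125226543-125226942 lay 1.69, 0.877 and 1.98 kb from the nearest LDB1 site, next to sites 4 to 6, and are named after their values were seen.

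**Figure D5:**
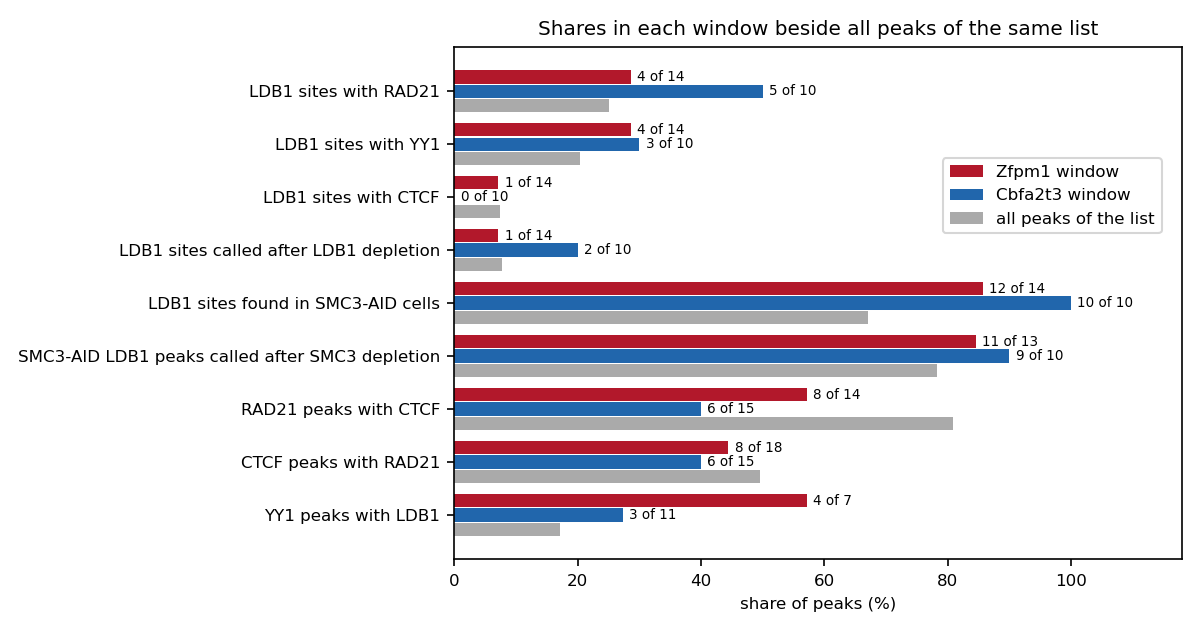
Share of peaks that overlap a peak of another list, for 9 pairs of lists. The x axis is in percent; red and blue bars are the Zfpm1 and Cbfa2t3 windows with their counts, and grey bars are all peaks of the same list. CTCF is at 8 of 14 and 6 of 15 RAD21 peaks beside 80.9% of all, and LDB1 after SMC3 depletion at 11 of 13 and 9 of 10 beside 78.2%.

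With neighbours within 25 kb, the Zfpm1 cluster was tied with 2 other chains for the most LDB1 peaks, 13 each. At that distance 22 chains in the genome had at least 9, as the Cbfa2t3 cluster did. The other chains of 13 lay on chromosomes 11 and 12. Their median spacing was 6.86 and 2.91 kb, against 3.44 kb in the Zfpm1 chain and 8.49 kb in the Cbfa2t3 chain. Their longest intervals were 18.3 and 7.41 kb, so the chromosome 12 chain stays whole with neighbours within 10 kb. At 10 kb the longest chains held 8 sites at Zfpm1 and 5 at Cbfa2t3, so the tie does not hold there. No rank at 10 kb was computed. The Zfpm1 chain spanned 8 CTCF, 7 RAD21 and 5 YY1 peaks and the Cbfa2t3 chain 6, 9 and 7. On chromosome 11 the counts were 5, 8 and 5, and on chromosome 12 they were 3, 13 and 12. LDB1 sites that overlapped a peak after LDB1 depletion numbered 1 and 2 in the Zfpm1 and Cbfa2t3 chains and 0 and 2 in the others. Counted as peaks inside the chain, as for the other proteins, the numbers were 1 and 2, and 2 and 2. No test was run between these regions.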

How the data were processed

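The 9 peak lists were deposited by the authors as chromosome, start and end of each peak, with no signal, score or p-value. They combine the replicates of 22 of the 65 samples, and the other 43 were not analysed here. The submitters' processing notes name Bowtie2, MACS2 2.2.9.1, deepTools 3.5.1 and mm9, with no role or order. The calling threshold and the consensus rule are not given in the sources used here. Read depth is unknown, so precision cannot be stated.

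Lists were assigned to groups by the labels. Positions are in mm9 and counted from 1. Peaks were paired when they shared at least 1 bp, with counts over chromosomes 1 to 19, X and Y as the background (Python 3.11.15). The overlap count recovered 500 of 500 planted overlaps in simulated peaks and matched bedtools 2.31.1 on 3 pairs of lists. Figures used matplotlib 3.10.9. With 1 combined list per group, no test was run. Alternatives were other overlap rules, window lengths, chain distances and the lists of the other subline.

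The windows, the lists and the rule for naming sites were chosen with earlier results of these data known. Named sites are those with another protein, a call after depletion or a differing call, and cluster ends and extremes of spacing. RefSeq tables of GRCm38.p6 gave gene order and promoters only, and all 3 promoters of both genes were matched by symbol.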

Additional observations from a re-analysis of the deposited data

How the results depend on the processing

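Of 77 alternative values for 35 results, 67 kept a count or value within 1.5 times the reported one. With chains of neighbours within 10 kb in place of 25 kb, the longest chain held 8 LDB1 peaks at Zfpm1 and 5 at Cbfa2t3. LDB1 sites with CTCF at Zfpm1 numbered 0 if the overlap had to cover 50% of each peak and 3 if peaks up to 1 kb apart counted. At Cbfa2t3 they numbered 1 with midpoints within 500 bp, which is site 8, and 4 with peaks up to 1 kb apart. With the RAD21 list of untreated SMC3-AID cells, LDB1 sites with RAD21 numbered 0 at Zfpm1 and 1 at Cbfa2t3; that list is smaller, and the cause was not tested. RAD21 peaks shared by the sublines at Cbfa2t3 numbered 5 with peaks up to 1 kb apart. Under the other overlap rules, shares over all peaks were not counted. With GATA in place of AGATAA, chosen after the sequences were seen, the upstream Cbfa2t3 promoter had 2 matches. For single lists, 34 of 36 window counts stayed within 1.5 times when windows were extended by 50 kb or trimmed by 25 kb on each side; RAD21 at Zfpm1 rose to 22 in LDB1-AID cells and RAD21 at Cbfa2t3 to 8 in SMC3-AID cells in the extended windows. Since depth is unknown, a site not called cannot be told apart from a site below the calling threshold. No paired analysis was possible because each list combines the replicates of its group.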
